A study of Mus musculus with 6 samples.

Results

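Described here are 10 genes by which the liver takes up lipid and prepares fatty acids for use, out of 55487 genes in the files. They encode 2 lipoprotein receptors (Vldlr and Lrp1), a lysophospholipid transporter (Mfsd2a), a fatty acid receptor (Cd36), 2 fatty acid transport proteins (Slc27a1 and Slc27a4), 2 fatty acid binding proteins (Fabp1 and Fabp2) and 2 long-chain acyl-CoA synthetases (Acsl1 and Acsl5). They were found in the files by gene symbol, and all 10 had a row. The set was drawn up with the differences of these genes between the groups already known, so their values in that comparison are given as a description, with no p-value. Livers came from 6 male mice aged 8 weeks and kept on standard chow, 3 named WT, of the BALB_cJ substrain, and 3 named SCADD, of the BALB_cBYJ substrain, which lacks short-chain acyl-CoA dehydrogenase activity. The design text of the series calls the 3 animals of a group biological replicates. Deficiency and substrain coincide in every animal, so the enzyme defect and other substrain variants cannot be told apart. RNA was taken from 20 mg of frozen tissue and sequenced as poly(A) libraries.

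Hepatocytes take up fatty acids carried by albumin and fatty acids held in lipoprotein remnants. Receptors such as LRP1 and VLDLR internalise lipoproteins, CD36 and the SLC27A proteins help fatty acids across the plasma membrane, and FABP proteins carry them in the cytosol. Long-chain acyl-CoA synthetases then join the fatty acid to coenzyme A, the step that any oxidation or esterification requires. Several of these genes, among them Cd36, Fabp1 and Acsl1, are classical targets of the nuclear receptor PPAR-alpha.

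The WT libraries held 23991104 to 27148756 gene reads and the SCADD libraries 16948986 to 23912744, and 13.6% to 16.4% of reads were unmapped in WT against 25.1% to 36.6% in SCADD, with SCADD replicate 3 at the highest share and the lowest total. Levels are given as CPM, read counts scaled to a common library size with edgeR's TMM factors. Acads, the gene of the deficient enzyme, was at 166 to 196 CPM in WT and 96.96 to 104 CPM in SCADD livers. The 10 hepatocyte markers summed to 115577 to 167161 CPM in WT and 103612 to 144300 CPM in SCADD, none was at 0, and 1 was called, Cps1, which fell (log2 fold change -0.97, SE 0.17, adjusted p = 0.00728 by edgeR). A gene is called where edgeR's quasi-likelihood test, fitted over 13498 genes, gave a Benjamini-Hochberg adjusted p under 0.05, which held for 947 genes, 569 higher and 378 lower in SCADD. Leaving out 1 library moved that number by over 1.5 times in 4 cases, to 395 (WT replicate 2), 460 (WT replicate 3), 517 (SCADD replicate 1) and 1590 (SCADD replicate 3). Upper-quartile scaling gave 470 higher and 482 lower genes.

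The 250 bases before the RefSeq start (build GRCm38.p6) are shown for the 3 called members and for Fabp1, the most abundant, each 5′ to 3′ on the strand of the gene. For Fabp1 the last 52 bases, which GENCODE M21 places inside the gene, are left out. All 10 members matched RefSeq, with 14 such windows. Capitals mark matches to 5 short motifs that were searched on both strands.
Vldlr (chr19:27216234-27216483, plus strand): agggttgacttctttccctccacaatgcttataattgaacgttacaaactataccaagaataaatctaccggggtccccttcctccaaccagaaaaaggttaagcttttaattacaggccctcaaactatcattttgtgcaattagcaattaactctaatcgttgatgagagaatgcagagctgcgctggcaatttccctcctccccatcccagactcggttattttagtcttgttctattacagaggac
Mfsd2a (chr4:122961189-122961438, minus strand): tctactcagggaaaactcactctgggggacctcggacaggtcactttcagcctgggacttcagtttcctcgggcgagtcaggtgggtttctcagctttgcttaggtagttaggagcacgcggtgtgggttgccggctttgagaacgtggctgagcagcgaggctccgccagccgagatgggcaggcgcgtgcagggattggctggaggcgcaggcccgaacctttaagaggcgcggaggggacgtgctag
Cd36 (chr5:17835897-17836146, minus strand): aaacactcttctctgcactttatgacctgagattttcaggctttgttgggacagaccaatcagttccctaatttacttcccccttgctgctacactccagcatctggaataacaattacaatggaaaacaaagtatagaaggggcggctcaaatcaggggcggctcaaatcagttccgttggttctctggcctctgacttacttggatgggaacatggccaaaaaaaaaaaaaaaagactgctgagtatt
Fabp1 (chr6:71199629-71199826, plus strand): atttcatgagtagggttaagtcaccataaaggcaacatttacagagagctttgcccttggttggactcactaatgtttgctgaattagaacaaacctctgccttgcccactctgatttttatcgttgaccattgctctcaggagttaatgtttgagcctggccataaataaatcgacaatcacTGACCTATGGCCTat
The first motif was a direct repeat, AGGNCA followed after any 1 base by AGGNCA again, the layout that PPAR and RXR pairs are known to bind. The Fabp1 window holds it at positions -67 to -55 before the start, read there as TGACCTATGGCCT on the opposite strand, and no other member window does. Of all 32851 windows in the table, 111 (0.338%) hold it. Fabp1 also has the TATA box letters TATAAA at -30 to -25, in the stretch left out above, a motif found in 12.4% of all windows. The E-box CACGTG, in 6.02% of all windows, was in 1 of the 3 Slc27a1 windows. The CRE palindrome TGACGTCA (1.55% of all windows) and the C/EBP-ATF composite TGATGNAAT (0.816%) were in none of the 14. No match overlapped a match to another motif. The Cd36 window lies inside the annotated gene, which reaches further upstream, and the other Vldlr window, also inside its gene, held no match and is not shown. A match here is a match of letters, and binding was not measured.

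Of the 10 members, all of which passed the filter on low counts, 3 were called and all 3 rose in SCADD livers, Mfsd2a, Vldlr and Cd36. By the same rule 7.02% of all tested genes were called, 4.22% as higher and 2.80% as lower. The members were chosen on this comparison, so nothing is read from their number. The other 7 were not called, 6 with a positive and 1 with a negative log2 fold change. In CPM the groups did not overlap for 8 members, all higher in SCADD, and overlapped for Lrp1 and Slc27a1. Over all tested genes the groups did not overlap in CPM for 28.0%, and for 14.9% with SCADD higher. By TPM, levels per length, Acsl1, Acsl5 and Slc27a4 also overlapped. SCADD replicate 3 (200, 150 and 5.74 TPM) lay below WT replicate 1 (259, 193 and 6.92 TPM) for these 3 genes. For Acsl5, SCADD replicate 3 was also just below the lowest WT liver, replicate 3 (151 TPM). The median log2 fold change of the members was 0.83, and that of all tested genes was -0.00078. The number of called members was 5 without SCADD replicate 2, where 915 of all 13847 genes fitted were called. It was 6 without SCADD replicate 3 (1590 of 13805 genes), 6 with DESeq2 (1255 of 24676) and 7 with no filter on low counts (1702 of 24676). Mfsd2a, Vldlr and Cd36 were called in each of these.

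**Figure D1:**
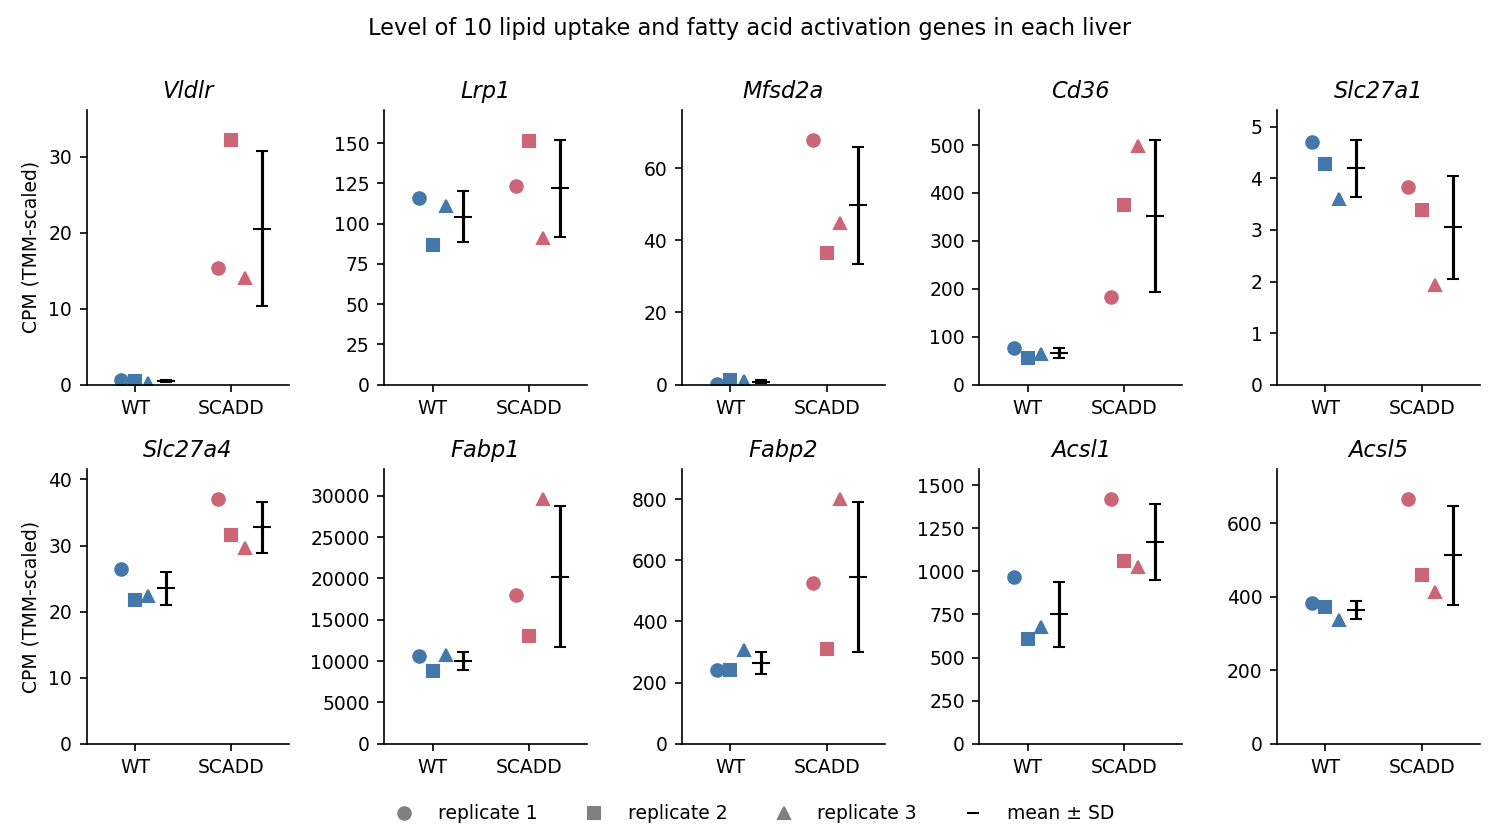
Level of each of the 10 genes in TMM-scaled CPM (vertical axis, from 0, a separate scale per gene) in the 3 WT and 3 SCADD livers. Points are livers, with a marker for each replicate number, and the bar gives the mean and SD. Vldlr and Mfsd2a were near 0 in WT, and the SCADD points of Lrp1 and Slc27a1 overlap the WT points.

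Vldlr, the very low density lipoprotein receptor (ENSMUSG00000024924, chromosome 19, 27216484 to 27254231, plus strand), binds apolipoprotein E-rich particles and is best known from heart, muscle and fat. It was at 0.543, 0.437 and 0.263 CPM in WT replicates 1, 2 and 3, from 15, 10 and 7 reads. In SCADD replicates 1, 2 and 3 it was at 15.3, 32.3 and 14.1 CPM, from 375, 684 and 227 reads. Every SCADD liver was far above every WT liver, and SCADD replicate 2 was about double the level of the other SCADD livers. Its log2 fold change was 5.62 (SE 0.43), or 49.0-fold, and it was 5.12 without SCADD replicate 2. The WT level rests on 32 reads in all.

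Lrp1, the large receptor that clears remnants from blood (ENSMUSG00000040249, chromosome 10, 127538161 to 127621148, minus strand), showed no such difference. It was at 116, 86.4 and 111 CPM in WT and at 123, 151 and 91.1 CPM in SCADD replicates 1, 2 and 3. WT and SCADD overlapped, since SCADD replicate 3 lay between WT livers. The log2 fold change was 0.22 (SE 0.19), not called, and it ranged from 0.03 to 0.40 over the alternatives.

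Mfsd2a (ENSMUSG00000028655, chromosome 4, 122946850 to 122961188, minus strand) encodes a sodium-dependent transporter of lysophosphatidylcholine that carries long-chain fatty acids, known from the blood-brain barrier and, in liver, for its rise on fasting. Its level was 0.289, 1.27 and 0.976 CPM in WT replicates 1, 2 and 3, from 8, 29 and 26 reads. In SCADD it was 67.9, 36.6 and 44.7 CPM, from 1665, 776 and 721 reads. The lowest SCADD liver was well above the highest WT liver. The log2 fold change was 5.91 (SE 0.44), or 59.9-fold.

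Cd36 (ENSMUSG00000002944, chromosome 5, 17781690 to 17888801, minus strand), a scavenger receptor for long-chain fatty acids and oxidised lipoproteins, started from a higher level. It was at 77.2, 56.1 and 63.0 CPM in WT and at 184, 375 and 499 CPM in SCADD replicates 1, 2 and 3. All SCADD livers were above all WT livers, with SCADD replicate 1 nearest to them. On the log2 scale the fold change was 2.43 (SE 0.33), or 5.38-fold. Among the SCADD livers Mfsd2a was highest in replicate 1 and Vldlr in replicate 2, in CPM and in TPM alike, while Cd36 was highest in replicate 3 in CPM and in replicate 2 in TPM.

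Cd36, Vldlr and Mfsd2a are also expressed by cells other than hepatocytes, and bulk tissue cannot tell more cells of a type from more RNA per cell. Of 12 sinusoidal endothelial markers, all tested, 0 rose, and Lyve1 fell (log2 fold change -1.40, SE 0.29, adjusted p = 0.0152). The sum of these markers was 286 to 322 CPM in WT and 186 to 278 CPM in SCADD. Of 12 Kupffer cell markers none was called, and their sum was 294 to 382 CPM in WT and 237 to 384 CPM in SCADD. Of 8 adipocyte markers, 2 were tested. Adipoq was at 4.67, 0.306 and 0.3003 CPM in WT and at 0.612, 0.472 and 0.310 CPM in SCADD replicates 1, 2 and 3, while Plin4, a lipid droplet protein, rose (log2 fold change 2.10, SE 0.33, adjusted p = 0.0103). The 8 adipocyte markers summed to 5.52 to 13.0 CPM in WT and 26.7 to 34.2 CPM in SCADD, almost all of it Plin4 in SCADD. Ucp1 was at 0 in all libraries. Of the other untested markers, Cfd, Plin1, Lep and Retn were highest in WT replicate 1 and Cidea in SCADD replicate 3. Cfd was at 2.60 CPM in WT replicate 1 and at most 0.0816 CPM elsewhere. Of the other lists, 0 of 12 stellate cell and 0 of 3 tested cholangiocyte markers were called, and no striated muscle marker was tested. The stellate cell sum was 399 to 543 CPM in WT and 320 to 580 CPM in SCADD. The 8 listed cholangiocyte markers summed to 44.8 to 52.2 CPM in WT and to less in SCADD, 29.0 to 41.1 CPM. Almost all of that sum was Spp1, at 45.0 ± 3.05 CPM in WT and 32.9 ± 5.94 CPM in SCADD (SD, n = 3 each). Spp1 was not called (log2 fold change -0.45, SE 0.15, adjusted p = 0.0987 by edgeR). Of 5 tested erythroid markers 1 was called, Alas2, which rose (log2 fold change 1.13, SE 0.17, adjusted p = 0.00357 by edgeR), and the 7 listed summed to 556 to 723 CPM in WT and 430 to 1457.8 CPM in SCADD. The part of these cell types in the members' values was not tested.

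The fatty acid transport proteins SLC27A1 and SLC27A4 join uptake to acyl-CoA formation. Slc27a1 (ENSMUSG00000031808, chromosome 8, 71568882 to 71587302, plus strand) was at 4.70, 4.28 and 3.60 CPM in WT and 3.83, 3.40 and 1.92 CPM in SCADD replicates 1, 2 and 3. Its groups overlapped, and its log2 fold change of -0.44 (SE 0.25) was the only negative one of the 10. Slc27a4 (ENSMUSG00000059316, chromosome 2, 29802634 to 29817522, plus strand) was at 26.4, 21.8 and 22.3 CPM in WT and 37.1, 31.6 and 29.7 CPM in SCADD. Its groups did not overlap in CPM, and the log2 fold change was 0.48 (SE 0.14), not called as reported. Slc27a4 was called without SCADD replicate 3 and with no filter on low counts.

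Both are minor members of their family in liver. Per length, as percent of the summed TPM of Slc27a1 to Slc27a6, they held 0.511% together in WT and 0.735% in SCADD. Slc27a2, which acts on very long-chain fatty acids, held 60.3% ± 2.58 in WT and 80.8% ± 2.82 in SCADD (SD, n = 3 each). Slc27a5, the bile acid-CoA ligase, held 39.1% ± 2.60 in WT and 18.5% ± 2.83 in SCADD. Slc27a2 itself, like Fabp4 below chosen after its values were seen, differed by 0.19 on the log2 scale and was not called (SE 0.17, adjusted p = 0.572 by edgeR), and Slc27a5 fell to 0.407-fold of its WT level (SE of the log2 value 0.19, adjusted p = 0.00285 by edgeR).

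**Figure D2:**
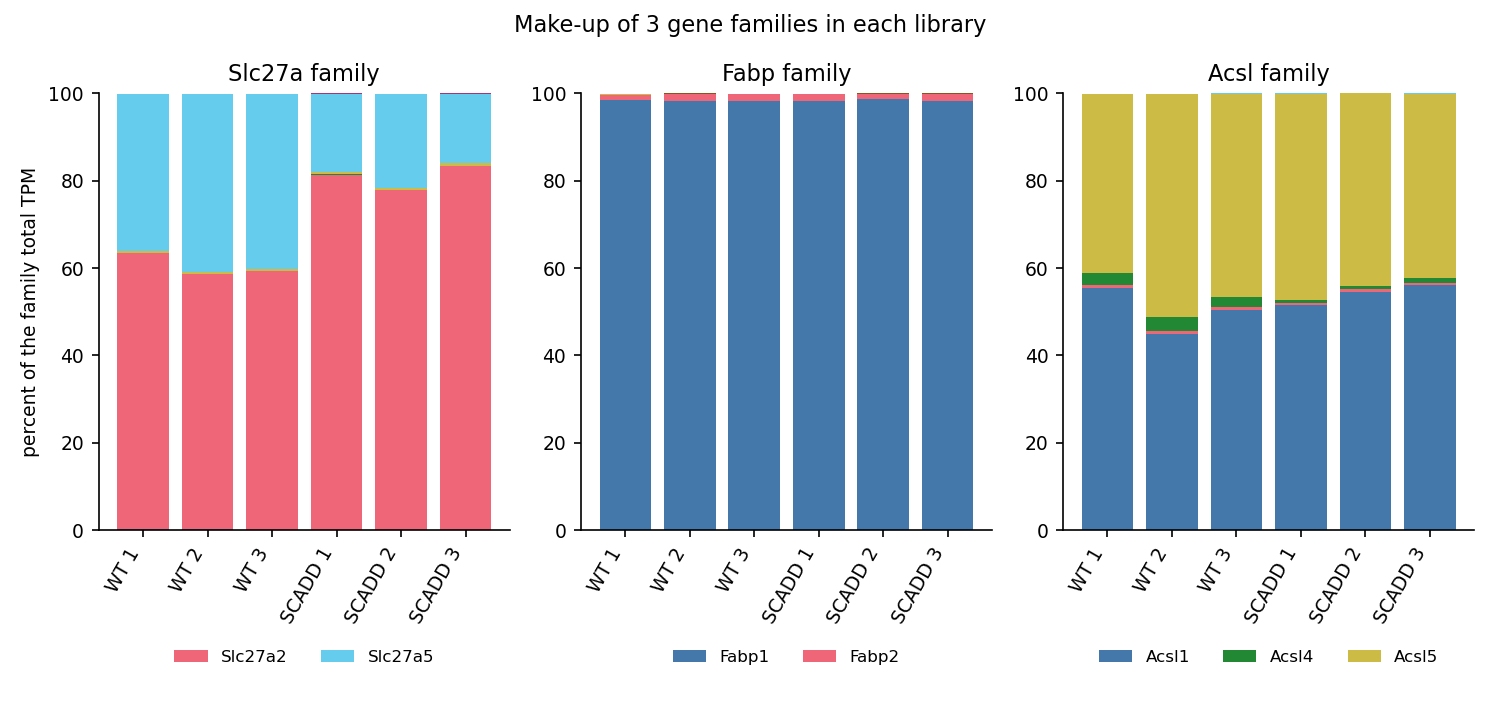
Percent of the family's summed TPM (vertical axis, 0 to 100) held by each gene in each of the 6 libraries, for the Slc27a, Fabp and Acsl families. Genes under 1% of their family in every library are drawn but not named. The Slc27a make-up differs between the groups, Slc27a2 holding 58.5% to 63.3% in WT and 77.7% to 83.3% in SCADD, while Fabp1 holds over 98% in each library.

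Fabp1, the liver fatty acid binding protein (ENSMUSG00000054422, chromosome 6, 71199827 to 71205023, plus strand), is one of the most abundant cytosolic proteins of hepatocytes. It was at 10554, 8780 and 10702 CPM in WT and 17951, 12998 and 29634 CPM in SCADD replicates 1, 2 and 3. All SCADD livers were above all WT livers, and replicate 3 was above the other SCADD livers by a wide margin. The log2 fold change was 1.01 (SE 0.29), or 2.02-fold, and 0.63 without SCADD replicate 3. Fabp2, the intestinal type (ENSMUSG00000023057, chromosome 3, 122895072 to 122899506, plus strand), was at 242, 242 and 306 CPM in WT and 524, 311 and 801 CPM in SCADD. The lowest SCADD liver, replicate 2, was just above the highest WT liver. Its log2 fold change was 1.05 (SE 0.30), or 2.07-fold, and 0.67 without SCADD replicate 3. The 2 genes had the same order among SCADD livers, replicate 3 above 1 above 2.

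Neither Fabp gene was called as reported. Both were called with DESeq2, with no filter on low counts and without SCADD replicate 2, and Fabp1 also without SCADD replicate 3. Of 8 enterocyte markers, 6 were at 0 in all libraries (Lct, Sis, Fabp6, Alpi, Cdx1 and Cdx2), and Vil1 was at 0.217 CPM or less. Apoa4, the only tested marker of that list, was at 1474 ± 573 CPM in WT and 1838 ± 964 CPM in SCADD (SD, n = 3 each). It was not called (log2 fold change 0.32, SE 0.45, adjusted p = 0.737 by edgeR). Per length, Fabp1 held 98.4% ± 0.132 of the summed TPM of 9 Fabp genes in WT and 98.5% ± 0.177 in SCADD, and Fabp2 held 1.36% ± 0.163 and 1.38% ± 0.131 (SD, n = 3 each). The Fabp family summed to 9050 to 11045 CPM in WT and 13327 to 30552 CPM in SCADD. Of the minor members, Fabp4 was at 28.7, 16.2 and 14.4 CPM in WT and 19.1, 11.4 and 75.6 CPM in SCADD replicates 1, 2 and 3, so that SCADD replicate 3 alone stood above WT.

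Acsl1, the main long-chain acyl-CoA synthetase of liver, fat and heart (ENSMUSG00000018796, chromosome 8, 46471037 to 46536051, plus strand), was at 965, 607 and 679 CPM in WT and 1422, 1062 and 1027 CPM in SCADD replicates 1, 2 and 3. Both groups stayed apart in CPM, and WT replicate 1 came close to the lower SCADD livers. Acsl1 had a log2 fold change of 0.64 (SE 0.22), or 1.56-fold, not called as reported but called with DESeq2 and with no filter on low counts. Acsl5 (ENSMUSG00000024981, chromosome 19, 55251938 to 55297720, plus strand), a synthetase of mitochondria and endoplasmic reticulum, was at 382, 372 and 337 CPM in WT and 667, 460 and 413 CPM in SCADD. Its groups did not overlap in CPM, and SCADD replicate 1 stood above the rest. Acsl5 had a log2 fold change of 0.50 (SE 0.19), or 1.41-fold, called without SCADD replicate 3, when it was 0.63, and it was 0.25 without SCADD replicate 1. Acsl5 overlaps Zdhhc6 on the other strand, and the counts used here were of 1 strand. Slc27a4, Acsl1 and Acsl5 had the same order among SCADD livers, replicate 1 above 2 above 3.

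The 2 synthetases made up nearly all of their family. Acsl1 held 50.3% ± 5.28 of the summed TPM of 5 Acsl genes in WT and 54.1% ± 2.31 in SCADD, and Acsl5 held 46.3% ± 4.99 and 44.6% ± 2.58 (SD, n = 3 each). These shares differed between the groups by less than the spread of the WT livers. Acsl4, which prefers arachidonic acid, held 2.72% ± 0.424 in WT and 0.899% ± 0.232 in SCADD.

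Levels of different genes were compared per length, within each group, as TPM. In WT livers the order was Fabp1 (22356 ± 3099 TPM), Fabp2 (306 ± 31.2), Acsl1 (191 ± 59.9), Acsl5 (171 ± 20.7), Cd36 (23.9 ± 5.63), Lrp1 (21.2 ± 2.85), Slc27a4 (5.82 ± 0.957), Slc27a1 (1.76 ± 0.5002), Mfsd2a (0.420 ± 0.291) and Vldlr (0.103 ± 0.0874), each with SD and n = 3. Neighbours overlapped for Acsl1 and Acsl5, for Cd36 and Lrp1, and for Mfsd2a and Vldlr, and the other 6 of 9 neighbouring pairs did not. In SCADD livers Mfsd2a (21.9 ± 8.95 TPM) was level with Lrp1 (20.8 ± 5.83), and Cd36 (118 ± 44.5) stood apart from both. Vldlr reached 3.20 ± 2.03 TPM and overlapped Slc27a1 (1.18 ± 0.553). Vldlr therefore stayed among the least abundant transcripts of the set in SCADD livers.

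**Figure D3:**
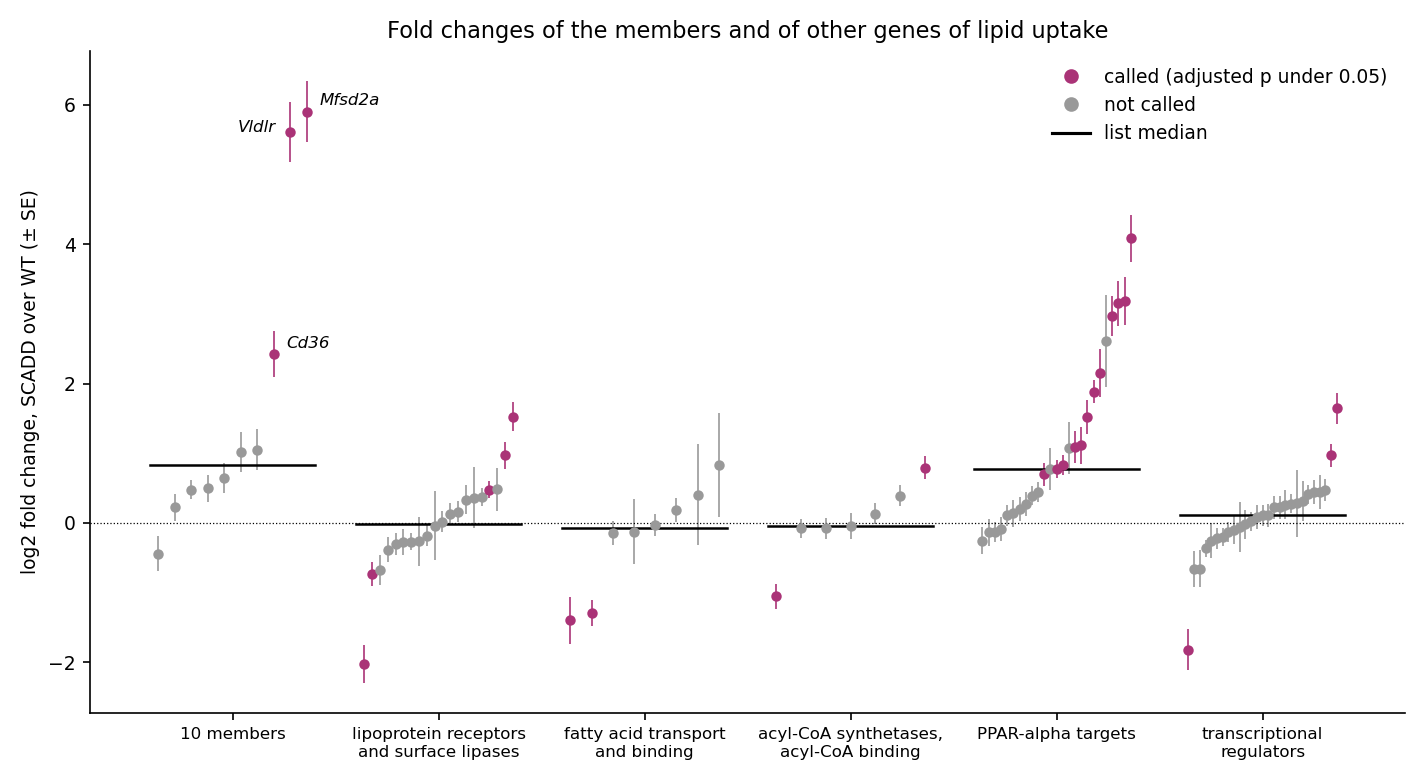
Log2 fold change of SCADD over WT (vertical axis, with SE) for the 10 members and for the tested genes of 5 other lists, ordered by size within each list. Coloured points passed an adjusted p of 0.05, and the black line is the median of the list. Mfsd2a, Vldlr and Cd36 stand at 5.91, 5.62 and 2.43, and the PPAR-alpha targets have a median of 0.78.

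Other genes of lipoprotein uptake moved in both directions. Of 20 tested lipoprotein receptor and surface lipase genes (23 listed), 3 rose, 2 fell and 15 were not called, with a median log2 fold change of -0.01. Lpl, lipoprotein lipase, which frees fatty acids from circulating triglyceride, was at 47.4, 35.8 and 22.0 CPM in WT and 9.99, 7.03 and 8.75 CPM in SCADD replicates 1, 2 and 3. All SCADD livers were below all WT livers, and Lpl fell (log2 fold change -2.03, SE 0.27, adjusted p = 0.00262 by edgeR). Lipc, hepatic lipase, fell from 432 ± 44.1 to 260 ± 42.2 CPM (SD, n = 3 each; log2 fold change -0.73, SE 0.17, adjusted p = 0.0263 by edgeR). Lipg, endothelial lipase, rose from 6.49 ± 0.195 CPM in WT to 18.6 ± 5.80 CPM in SCADD (SD, n = 3 each). Its difference was 1.53 on a log2 scale (SE 0.21, adjusted p = 0.00207 by edgeR). The receptors of the list that rose were Lrp4 (log2 fold change 0.97, SE 0.20, adjusted p = 0.0159 by edgeR) and the Wnt co-receptor Lrp6 (0.48, SE 0.12, adjusted p = 0.0367). Leaving out WT replicate 1 or SCADD replicate 1 left 3 called genes of this list, leaving out WT replicate 2 or 3 left 2, and Lipg and Lpl were called under all 16 alternatives. Lrp6 was lost with upper-quartile scaling (adjusted p = 0.0569) and without any library but SCADD replicate 3 (0.0559 to 0.155), Lipc without any WT library or SCADD replicate 1 (0.055 to 0.134), and Lrp4 without WT replicate 2 or 3 (0.0649 to 0.0838).

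Of 8 tested fatty acid transport and binding genes (17 listed), 0 rose and 2 fell, with a median log2 fold change of -0.08. They were Slc27a5, at 1249 ± 18.3 CPM in WT and 508 ± 108 CPM in SCADD (SD, n = 3 each), and Cav1, the caveolar coat protein of endothelium and fat. Cav1 was at 6.33, 3.50 and 2.52 CPM in WT and 1.55, 1.37 and 1.80 CPM in SCADD replicates 1, 2 and 3 (log2 fold change -1.40, SE 0.34, adjusted p = 0.0335 by edgeR). Slc27a5 alone was called without WT replicate 1 or 2, without any 1 SCADD library and with limma-voom, where Cav1 had adjusted p = 0.0508 to 0.0973. Of 7 tested long-chain acyl-CoA synthetase and acyl-CoA binding protein genes (13 listed), 1 rose and 1 fell. Dbi, the acyl-CoA binding protein that holds the product of the synthetases, was at 427, 404 and 335 CPM in WT and 698, 607 and 719 CPM in SCADD. Every SCADD liver was above every WT liver (log2 fold change 0.79, SE 0.16, adjusted p = 0.0153 by edgeR). Acsl4 was at 56.4, 54.3 and 40.7 CPM in WT and 27.4, 18.6 and 27.0 CPM in SCADD, a fall of all 3 livers below WT (log2 fold change -1.05, SE 0.18, adjusted p = 0.00744 by edgeR). The call of Dbi was lost on leaving out SCADD replicate 1 or either of WT replicates 2 and 3 (adjusted p = 0.0708 to 0.0899), when 1 gene of the list was called. Lpl, Cav1 and Acsl4 are also expressed by non-parenchymal cells, and the sinusoidal endothelial sum given above was likewise lower in SCADD. WT replicate 1, which had the highest Adipoq of all livers, was also the highest WT liver for Lpl, Cav1 and Acsl4. Without it the log2 fold change was -1.76 for Lpl, -0.95 for Cav1 and -0.98 for Acsl4. The part of endothelial or fat cells in these falls was not tested.

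PPAR-alpha targets outside the set rose in number. Of 25 tested (26 listed), 12 rose, 0 fell and 13 were not called, 48.0% against the 7.02% of all genes, with a median log2 fold change of 0.78. Many of these genes were known to have risen before the list was written, so the count is no independent evidence. The smallest p-value was that of Pex11a, a peroxisome division factor (log2 fold change 1.88, SE 0.16, adjusted p = 0.000122 by edgeR). Next came Fitm1, which acts in lipid droplet formation (4.08, SE 0.34, adjusted p = 0.000268 by edgeR), and the pantetheinase Vnn1 (2.97, SE 0.29, adjusted p = 0.000307). The thioesterases Acot1 (3.15, SE 0.32, adjusted p = 0.00066 by edgeR) and Acot2 (3.19, SE 0.34, adjusted p = 0.00207) followed. Acot1 and Acot2 are close paralogs that can share reads, so their separate values are uncertain. The number that rose was 9 to 13 when 1 library was left out. The other lists were above 7.02% as well, counting both directions. Called were 25% of the tested receptor and lipase genes and 25% of the transport and binding genes. The share was 28.6% for the synthetase and acyl-CoA binding genes and 11.1% for the regulators given next.

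Of 27 tested transcription factors and cofactors of lipid metabolism (29 listed), 2 rose, 1 fell and 24 were not called. Pparg, the fat cell regulator that is known to drive Cd36 in fatty liver, was at 4.52, 4.94 and 2.93 CPM in WT and 10.4, 15.8 and 12.5 CPM in SCADD replicates 1, 2 and 3. All SCADD livers were above all WT livers (log2 fold change 1.64, SE 0.23, adjusted p = 0.00227 by edgeR). Nr1i3, the xenobiotic receptor CAR, rose from 172 ± 26.8 to 337 ± 28.6 CPM (SD, n = 3 each; log2 fold change 0.97, SE 0.16, adjusted p = 0.00617 by edgeR). The coactivator Ppargc1a fell (log2 fold change -1.82, SE 0.30, adjusted p = 0.00744 by edgeR), a call lost without SCADD replicate 3 (adjusted p = 0.0516). Ppara itself, chosen after its values were seen, was at 44.0, 46.4 and 48.1 CPM in WT and 61.8, 79.1 and 50.9 CPM in SCADD, and was not called (log2 fold change 0.47, SE 0.16, adjusted p = 0.112 by edgeR).

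**Figure D4:**
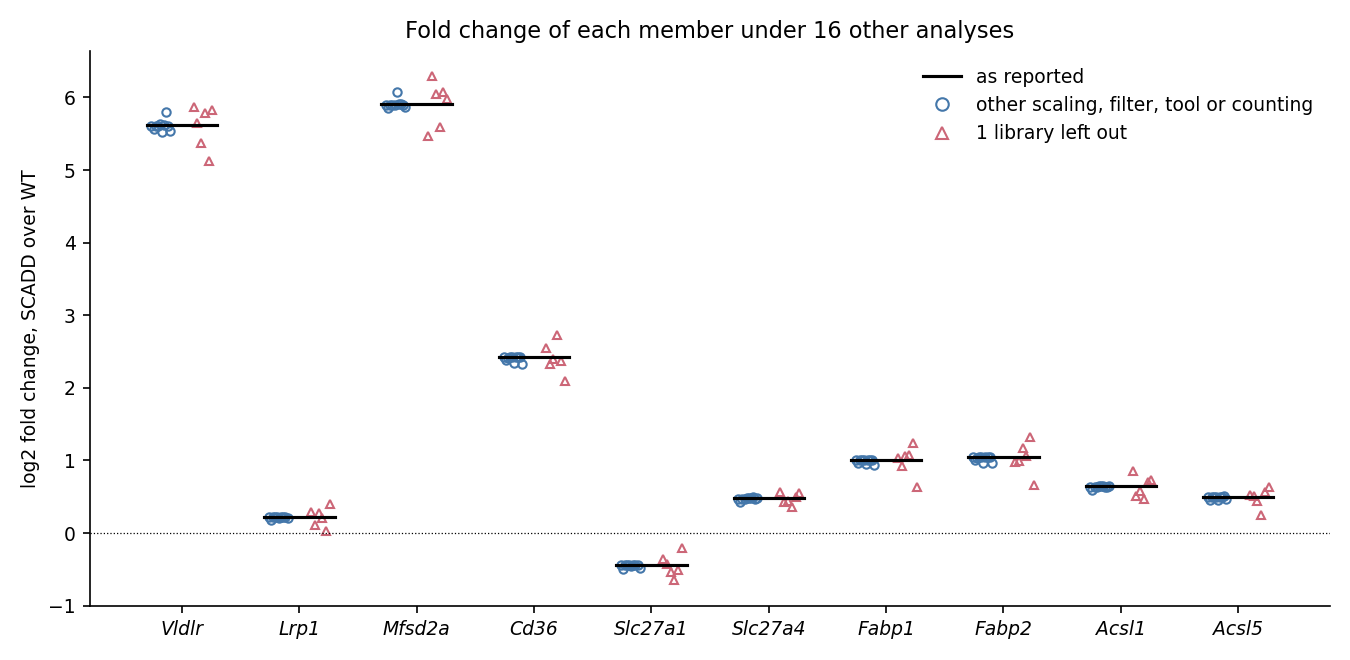
Log2 fold change of SCADD over WT (vertical axis) of each member as reported (black line), under 10 other choices of scaling, filter, tool, counting or pairing (circles) and with 1 library left out (triangles). No value crosses 0, and Mfsd2a, Vldlr and Cd36 stay above 2.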

How the data were processed

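Poly(A) RNA libraries of 6 mouse livers were analysed, 3 WT and 3 SCADD, grouped by sample title. Per the submitters' processing notes the authors used STAR 2.7.6a and RSEM 1.3.3 on GRCm38. The annotation release is not given in the sources used here. The authors deposited whole-number read counts per gene with 2 stranded columns, of which column 4 held 96.8% to 97.3% of stranded reads and was used. The authors also deposited RSEM expected counts (rounded here for 1 alternative), TPM, which sum to the same total per library, and FPKM, which were not used. Summary rows that name no gene were dropped, with 1.47% to 2.17% of reads in no gene. Of 55487 gene IDs, 55227 matched GENCODE M21, which gave symbols and coordinates.

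The robust quasi-likelihood test of edgeR 4.0.16 (R 4.3.3) was run after filterByExpr (minimum count 10) and TMM scaling, with group as the only term and Benjamini-Hochberg adjustment over all 13498 genes. SE is the log2 fold change over the square root of F. TPM was used to compare genes within libraries and not to test differences between groups, because abundant transcripts that differ between groups shift all other TPM values. The precision of low levels is limited by the reads printed beside them. Members and lists were chosen with earlier results of these data known. From each pathway list up to 5 called genes with the smallest p are named, with others marked as chosen after their values were seen. Alternatives were other scalings, filters, tools (DESeq2 1.42.0, limma 3.58.1), counts, a replicate block and leaving out each library.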

Additional observations from a re-analysis of the deposited data

How the results depend on the processing

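All 10 members kept their direction under all 16 alternatives, and Mfsd2a, Vldlr and Cd36 were called under each. The log2 fold change ran from 5.46 to 6.30 for Mfsd2a, 5.12 to 5.87 for Vldlr and 2.10 to 2.72 for Cd36. Of 17 named pathway genes 11 were called under all alternatives and none reversed. With no filter on low counts 1702 genes, 7 members and 6 regulators were called. DESeq2 called 1255 genes and 6 members, and limma-voom called 1 fatty acid transport gene. With 1 library left out, 395 to 1590 genes, 3 to 6 members, 2 to 7 receptor and lipase genes, 1 to 2 transport genes, 1 to 2 synthetase and binding genes, 9 to 13 PPAR-alpha targets and 3 to 4 regulators were called. The cause of these changes was not tested. By STAR counts per kilobase, Slc27a1 and Slc27a4 held 0.706% of their family in SCADD. Left-out libraries gave 0.501% to 0.528% in WT and 0.721% to 0.746% in SCADD for this share, 98.4% to 98.5% (WT and SCADD) for Fabp1, 47.7% to 53.0% and 53.1% to 55.4% for Acsl1, and 6 to 7 of 9 separate neighbours in the level order.

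The replicate numbers were not taken to pair the samples, since the correlations of deviations between same-numbered livers were 0.0372 to 0.107 and 4 of 6 libraries correlated best with their own number. With the replicate block 1148 genes and 6 members were called, the added ones being Fabp1, Fabp2 and Acsl1. Depth limits the WT levels of Vldlr and Mfsd2a, at 32 and 63 reads over the group, while every other member had at least 197.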

Other observations

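The genes around the members were also examined. Within 500 kb on either side of the 10 members 136 other genes were tested, of which 13 (9.56%) were called, 9 higher and 4 lower in SCADD, beside 7.02% of all genes. None of 8 neighbours of Mfsd2a and 0 of 2 neighbours of Cd36 was called. Pum3, 1 of the 2 tested neighbours of Vldlr, was higher in SCADD (0.58 on the log2 scale, SE 0.14, adjusted p = 0.0375 by edgeR). Near Acsl5, the glycerol-3-phosphate acyltransferase gene Gpam rose by 0.63 (SE 0.14, adjusted p = 0.024 by edgeR) on the log2 scale, and near Lrp1 the retinol dehydrogenase genes Rdh16 (0.97, SE 0.15, adjusted p = 0.00357) and Rdh16f2 (1.86, SE 0.19, adjusted p = 0.000365) rose. The 4 that fell were Gtpbp3 (-1.43, SE 0.18, adjusted p = 0.00149) and Pgls (-0.51, SE 0.12, adjusted p = 0.0304) near Slc27a1, Dtx3 (-0.96, SE 0.20, adjusted p = 0.0178) near Lrp1 and Wdr34 (-0.60, SE 0.15, adjusted p = 0.0414) near Slc27a4, on the log2 scale by edgeR. These neighbours were chosen after their values were seen, and their part in the members' values was not tested.

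RSEM's effective length, a mean over a gene's transcripts weighted by their estimated abundance, was 2711, 5616 and 4653 bases for Vldlr in WT replicates 1, 2 and 3, and 5911, 6221 and 7010 bases in SCADD. The WT values rest on 13, 9 and 3 estimated reads, against 337, 615 and 203 in SCADD, and the files list 8 Vldlr transcripts. For Fabp1 and Fabp2, with 1 transcript each, it was 391 to 395 and 803 to 807 bases.

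Among 10430 candidates averaging 1 CPM or more, the 3 whose log2 CPM followed Mfsd2a most closely over the 6 libraries were Cblb (Pearson r = 0.999), Cebpg (0.997) and Cox19 (0.996). Their differences were far smaller on the log2 scale, 0.59 (SE 0.18, adjusted p = 0.0768 by edgeR), 0.54 (SE 0.12, adjusted p = 0.0235) and 0.64 (SE 0.12, adjusted p = 0.0115). The 6 libraries form 2 groups, so these correlations describe mainly the group difference. No called member fell, so no such genes are given for a fall.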
